A study of Mus musculus with 9 samples.

Results

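The genes described here encode the subunits of the proteasome, its caps and the helper proteins that assemble it, in whole mouse kidney. They were chosen by name alone. A gene entered if it is protein-coding and its symbol starts with Psma, Psmb, Psmc, Psmd, Psme or Psmg followed by a digit. Of the 55359 counted genes, 49 met this rule, and 47 of them had enough counts to be tested among 17179 genes. The rule also takes Psmc3ip, a meiotic recombination factor that is no subunit, and it leaves out 4 pseudogenes (Psmb5-ps, Psmb6-ps, Psmb6-ps2 and Psmb7-ps2), none of which had more than 3 counts in a library.

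The study's 9 RNA-seq libraries fall into 3 groups of 3. All mice were 6 weeks old when their diets began. NCD+Veh stands for mice on a normal calorie diet with 11.32% of calories from fat, given vehicle. HFD-STZ+Veh stands for mice whose high-fat feed gave 49.0% of calories as fat and that also had 2 injections of streptozotocin, a toxin of the insulin-producing beta cell, at 30 mg/kg on days 60 and 63, and then vehicle. HFD-STZ+DH mice had the same diet and toxin and were then dosed by mouth with dehydrozingerone, a phenolic compound found in ginger, at 50 mg/kg for 2 weeks. Diet and toxin were always given together, so their separate parts cannot be told apart. The labels do not give strain or sex, and they do not say that each library came from its own animal. The p-values therefore measure the spread between these samples only. Each library also has its own batch date and the dates follow the groups, so a batch effect and a group effect cannot be told apart.

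The proteasome is the main protease of the cytosol and nucleus. Its barrel-shaped core, called 20S, is built of rings of alpha subunits that form the gate (Psma genes) and rings of beta subunits that hold the cutting sites (Psmb genes). The 19S cap binds proteins tagged with ubiquitin, removes the tag and unfolds them, using ATPases in its base (Psmc genes) and non-ATPase subunits in its base and lid (Psmd genes). Other caps are encoded by Psme genes. Interferon-gamma and immune cells exchange the cutting subunits Psmb6, Psmb7 and Psmb5 for Psmb9, Psmb10 and Psmb8, which gives the immunoproteasome. When the proteasome is overloaded, the transcription factor Nfe2l1 raises most of its genes together, and in the kidney the tubules rely on the proteasome for the turnover of their transporters and other proteins.

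Total counts per library ran from 15.1 to 47.5 M (M, mega). Levels are given as CPM, counts per M counts of library size after scaling by trimmed means of M values (TMM), and always in the order of replicates 1, 2 and 3. Group values are mean ± SD (n = 3). Mitochondrially encoded genes took 39.2% to 51.5% of counts in NCD+Veh, 45.0% to 60.4% in HFD-STZ+Veh and 43.1% to 46.3% in HFD-STZ+DH. HFD-STZ+Veh replicate 2 stood apart with 60.4% mitochondrial counts, a TMM factor of 0.327 and only 2.13 M counts on nuclear protein-coding genes. Y-linked transcripts were present in 4 libraries, NCD+Veh replicate 1, HFD-STZ+Veh replicates 2 and 3 and HFD-STZ+DH replicate 3, so both sexes are in the data and their numbers differ between the groups. Markers of kidney cells were present in every library, for example Slc34a1 of the proximal tubule at 203 to 708 CPM and Umod of the thick ascending limb at 100 CPM or more. In bulk tissue, fewer cells of a type and less RNA per cell cannot be told apart.

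Levels were first compared between subunits in NCD+Veh kidney, as mean CPM per kilobase of mRNA. The 14 subunits of the 20S core, which assemble in equal numbers, spanned 6.02 (Psma5) to 156 (Psma4) with a median of 18.2. That is a 25.9-fold range. The 17 subunits of the 19S cap spanned 2.62 (Psmd13) to 80.2 (Psmc1) with a median of 15.04, a 30.6-fold range. Psma4, a subunit of the gate ring, and Psmc1, an ATPase of the base, ranked first and second of the 47 genes. Psma7 (50.3), Psme1 (47.5) and Psmb6 (45.4) followed. The 3 immunoproteasome subunits lay between 1.80 and 2.19 and the 7 assembly chaperones between 0.964 (Psmd5) and 11.3 (Psmg4). The per-kilobase values rest on the median length of annotated transcripts, so they depend on which isoforms the kidney makes, and that was not measured. Psma8, the alpha subunit of the testis, and Psmb11, the beta subunit of the thymus, had 12 and 6 counts over all 9 libraries and were under the filter. Their counts were close to the 3 counts per library that a count of 0 allows, which is 0.0463 to 0.405 CPM by library.

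**Figure D1:**
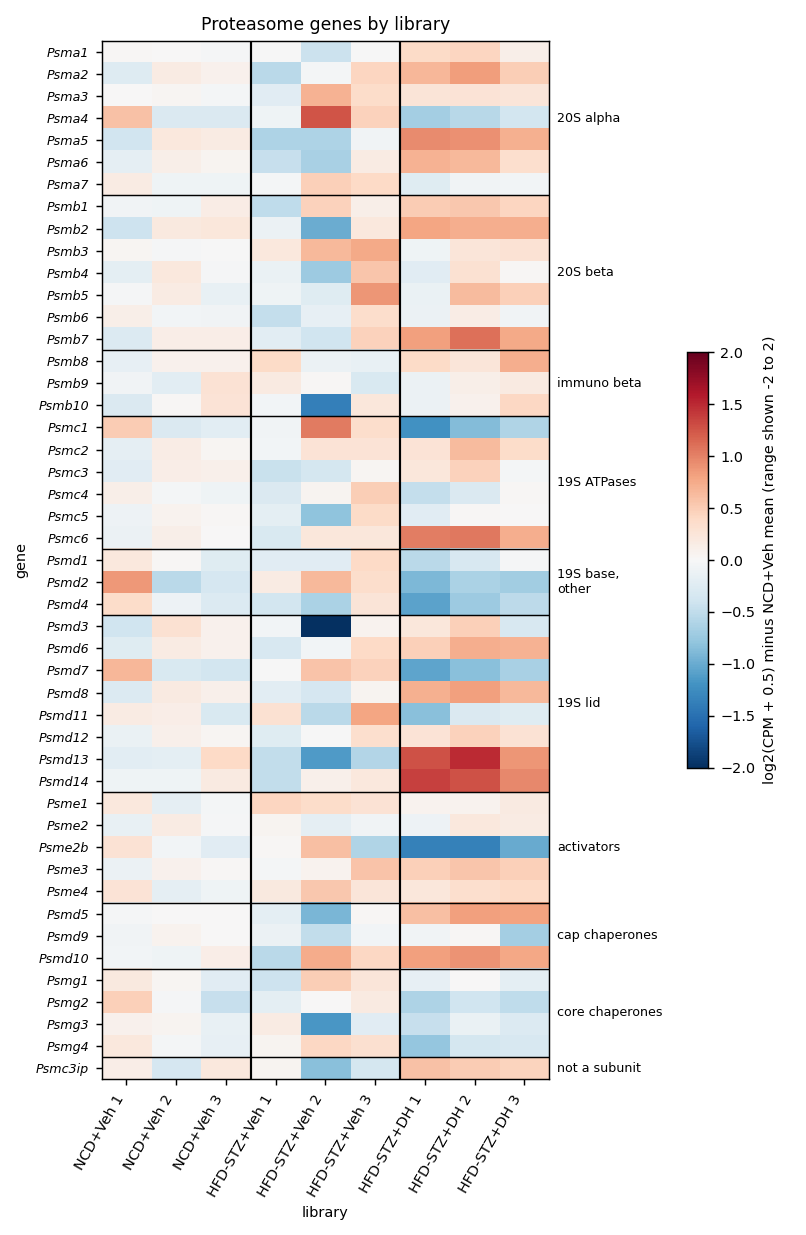
Level of each proteasome gene in each of the 9 libraries, drawn as log2 difference from the gene's mean over the NCD+Veh libraries, with genes in rows grouped by their part of the complex. A reader should see blocks of both colours in the HFD-STZ+DH columns, and NCD+Veh replicate 1 and HFD-STZ+Veh replicate 2 showing the reverse in genes such as Psma4 and Psmc1.

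The first comparison asked what the diabetic model did to these genes, by setting HFD-STZ+Veh against NCD+Veh. By edgeR's quasi-likelihood test, with p-values adjusted by Benjamini-Hochberg over the 17179 genes, 0 of the 47 proteasome genes were called at an adjusted p below 0.05. The background was 0.0524% of all genes (0.0233% higher and 0.0291% lower), so this comparison called almost nothing anywhere. At an unadjusted p below 0.05 there were 2 proteasome genes, where the share over all genes was 7.43%. The median log2 fold change of the 47 genes was 0.01, against -0.00 over all genes tested, with 24 estimates above 0 and 23 below. By DESeq2 and limma-voom the count was also 0, with 3 and 2 genes at an unadjusted p below 0.05.

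The lowest p belonged to Psmd13, a subunit of the lid. It stood at 2.99, 3.03 and 4.86 CPM in NCD+Veh and at 2.39, 1.35 and 2.21 CPM in HFD-STZ+Veh. These libraries did not overlap, and the log2 fold change was -0.83 ± 0.30 (SE) with an adjusted p of 0.562. Psmb3, a beta subunit without a cutting site, stood at 28.3, 27.2 and 27.5 CPM in NCD+Veh and at 31.9, 43.7 and 46.9 CPM in HFD-STZ+Veh. All its model libraries were higher, with a log2 fold change of 0.56 ± 0.21 and an adjusted p of 0.586. Psme1 was the other gene without overlap, higher in the model by 0.36 ± 0.19 on the log2 scale (adjusted p = 0.704). That makes 2 proteasome genes higher and 1 lower without overlap, where the background over all genes was 4.83% higher and 6.56% lower, 11.4% in all. In the other classes the lowest adjusted p was 0.704 in the alpha ring (Psma5), 0.756 among the base ATPases (Psmc1), 0.855 among the base non-ATPases (Psmd4), 0.790 and 0.795 among the chaperones (Psmg4 and Psmd5) and 0.898 among the immunoproteasome subunits (Psmb10).

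The second comparison asked what dehydrozingerone did in the diabetic model, by setting HFD-STZ+DH against HFD-STZ+Veh. Proteasome genes moved in both directions. Of the 47 genes 9 rose (19.1%) and 6 fell (12.8%), against a background of 10.0% higher and 12.0% lower over all genes tested. In either direction this is 31.9% against 22.1%. The genes that rose were the lid subunits Psmd13, Psmd14 and Psmd8, the ATPase Psmc6, the alpha subunits Psma5 and Psma6, the beta subunits Psmb7 and Psmb2, and the cap chaperone Psmd5. The genes that fell were the alpha subunit Psma4, the ATPase Psmc1, the cap subunits Psmd2 and Psmd7, the activator gene Psme2b and the core chaperone Psmg4. The median log2 fold change of the 47 genes was 0.12, against 0.04 over all genes.

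By class, 4 of 14 subunits of the 20S core rose and 1 fell, and 4 of 17 subunits of the 19S cap rose and 3 fell. Of the 3 immunoproteasome subunits 0 were called. Of the 5 activator genes 1 fell, and of the 7 chaperones 1 rose and 1 fell. The background of calls over all genes tested was 10.0% higher and 12.0% lower, and classes this small cannot be told from it. The median log2 fold change was 0.25 in the core, 0.27 in the cap, 0.39 in the immunoproteasome subunits and -0.03 in the chaperones. No difference between classes was tested. Libraries of the groups did not overlap for 23 of the 47 genes, 14 higher and 9 lower, against a background of 20.9% higher and 19.0% lower, 39.8% in all.

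**Figure D2:**
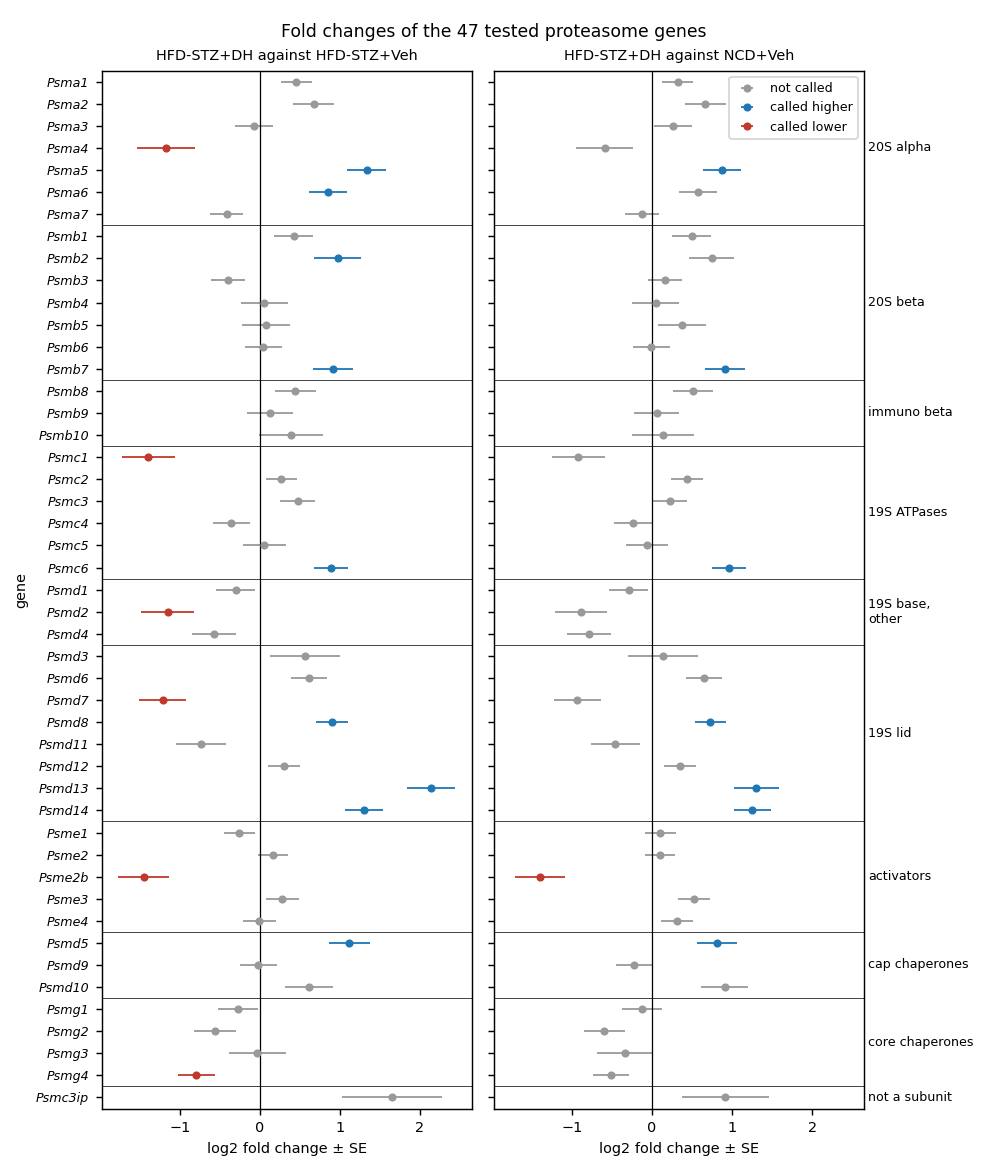
Log2 fold change with its standard error for each of the 47 tested proteasome genes, grouped by part of the complex, for HFD-STZ+DH against HFD-STZ+Veh (left) and against NCD+Veh (right). Blue marks genes that rose and red genes that fell at an adjusted p below 0.05, 9 and 6 on the left and 7 and 1 on the right, and both colours occur in the core and in the cap on the left.

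In the alpha ring, which gates the entry to the core, Psma5 showed the strongest rise. It stood at 5.51, 8.60 and 8.26 CPM in NCD+Veh, at 4.61, 4.59 and 6.94 CPM in HFD-STZ+Veh and at 14.6, 14.2 and 12.3 CPM in HFD-STZ+DH. All 3 treated libraries lay above all 6 others. The rise over HFD-STZ+Veh was 2.52-fold (log2 1.33 ± 0.24, adjusted p = 0.00591). Psma6 stood at 13.7, 17.1 and 16.4 CPM in NCD+Veh, at 11.2, 9.85 and 17.6 CPM in HFD-STZ+Veh and at 25.6, 24.9 and 19.9 CPM in HFD-STZ+DH. Here too the treated libraries were the highest, and the rise was 1.80-fold (log2 0.85 ± 0.24, adjusted p = 0.0262).

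Psma4, another subunit of this ring and the most abundant proteasome mRNA per length, went the other way. It stood at 261, 142 and 141 CPM in NCD+Veh, at 163, 414 and 239 CPM in HFD-STZ+Veh and at 108, 118 and 135 CPM in HFD-STZ+DH. All treated libraries were the lowest, but the model libraries spread over a wide range and the highest, replicate 2, is the library that stood apart. The fall was 2.26-fold (log2 -1.18 ± 0.36, adjusted p = 0.0368). Without HFD-STZ+Veh replicate 2 the log2 fold change was -0.74 and Psma4 was not called. Psma6, Psmb2, Psmb7, Psmd2 and Psmg4 also lost their calls without that library. Of the other 4 alpha subunits, Psma1 and Psma2 were higher in every treated library and Psma7 was lower in every one, and none of the 4 was called (adjusted p from 0.0756 to 0.859).

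In the beta ring, Psmb7, which carries the trypsin-like site, stood at 13.2, 17.6 and 17.6 CPM in NCD+Veh. It stood at 13.8, 12.0 and 22.2 CPM in HFD-STZ+Veh and at 28.7, 34.9 and 27.3 CPM in HFD-STZ+DH. It rose 1.88-fold over HFD-STZ+Veh, with no overlap (log2 0.91 ± 0.25, adjusted p = 0.0239). Psmb2, a structural beta subunit, stood at 6.47, 10.2 and 10.4 CPM in NCD+Veh, at 8.13, 4.18 and 10.4 CPM in HFD-STZ+Veh and at 15.6, 15.01 and 14.9 CPM in HFD-STZ+DH. The treated libraries were nearly equal to each other and above all others, and the rise was 1.96-fold (log2 0.97 ± 0.29, adjusted p = 0.0327). The other cutting subunits were not called. Psmb6, with the caspase-like site, had a log2 fold change of 0.04 ± 0.23 (adjusted p = 0.909), and Psmb5, with the chymotrypsin-like site, of 0.08 ± 0.30 (adjusted p = 0.881).

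In the base of the cap, the ring of 6 ATPases that unfolds substrates held members that moved in opposite directions. Psmc6 stood at 16.4, 19.4 and 17.9 CPM in NCD+Veh, at 14.4, 20.9 and 21.1 CPM in HFD-STZ+Veh and at 36.9, 37.6 and 30.0 CPM in HFD-STZ+DH. The control and model libraries covered the same range and the treated ones lay well above it. The rise was 1.86-fold (log2 0.89 ± 0.21, adjusted p = 0.0137). Psmc1 stood at 176, 101 and 106 CPM in NCD+Veh, at 118, 254 and 159 CPM in HFD-STZ+Veh and at 53.2, 67.4 and 81.1 CPM in HFD-STZ+DH. The treated libraries were the lowest of the 9, and the fall was 2.63-fold (log2 -1.39 ± 0.33, adjusted p = 0.0143). Psmc2, Psmc3, Psmc4 and Psmc5 were not called, with log2 fold changes from -0.36 to 0.47.

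Psmd2, the scaffold of the base on which shuttle factors dock, stood at 78.1, 29.3 and 33.8 CPM in NCD+Veh, at 47.9, 67.4 and 54.4 CPM in HFD-STZ+Veh and at 22.8, 27.2 and 26.3 CPM in HFD-STZ+DH. It fell 2.22-fold (log2 -1.15 ± 0.33, adjusted p = 0.0288). The highest of the 9 libraries was a control, NCD+Veh replicate 1. The other base scaffold, Psmd1 (-0.30 ± 0.25), and the ubiquitin receptor Psmd4 (-0.57 ± 0.27) were not called (adjusted p 0.393 and 0.150).

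The lid of the cap held the largest rise of all. Psmd13 had 2.99, 3.03 and 4.86 CPM in NCD+Veh, 2.39, 1.35 and 2.21 CPM in HFD-STZ+Veh and 9.26, 10.9 and 6.92 CPM in HFD-STZ+DH. The 3 groups did not overlap, with the model lowest and the treated group highest. The rise over HFD-STZ+Veh was 4.40-fold (log2 2.14 ± 0.30, adjusted p = 0.00309). Psmd14, the enzyme that cuts the ubiquitin chain off the substrate, had 7.06, 7.02 and 8.59 CPM in NCD+Veh, 5.20, 8.09 and 8.75 CPM in HFD-STZ+Veh and 20.1, 18.9 and 15.1 CPM in HFD-STZ+DH. Control and model libraries covered one range, and the treated ones lay far above it. The rise was 2.46-fold (log2 1.30 ± 0.23, adjusted p = 0.00576). Psmd8 had 10.6, 14.7 and 13.9 CPM in NCD+Veh, 11.1, 10.1 and 13.5 CPM in HFD-STZ+Veh and 21.4, 23.1 and 20.5 CPM in HFD-STZ+DH. It rose 1.87-fold (log2 0.90 ± 0.20, adjusted p = 0.0110).

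Psmd7, which forms a dimer with Psmd14 in the assembled lid, fell. It had 74.2, 37.7 and 36.0 CPM in NCD+Veh, 46.4, 69.5 and 64.1 CPM in HFD-STZ+Veh and 22.1, 25.8 and 29.5 CPM in HFD-STZ+DH. The treated libraries were the lowest and NCD+Veh replicate 1 was the highest. The fall was 2.32-fold (log2 -1.22 ± 0.30, adjusted p = 0.0154). The other 4 lid subunits were not called. Psmd6 was higher in every treated library (0.62 ± 0.23, adjusted p = 0.0685), and Psmd3, Psmd11 and Psmd12 overlapped between the groups.

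**Figure D3:**
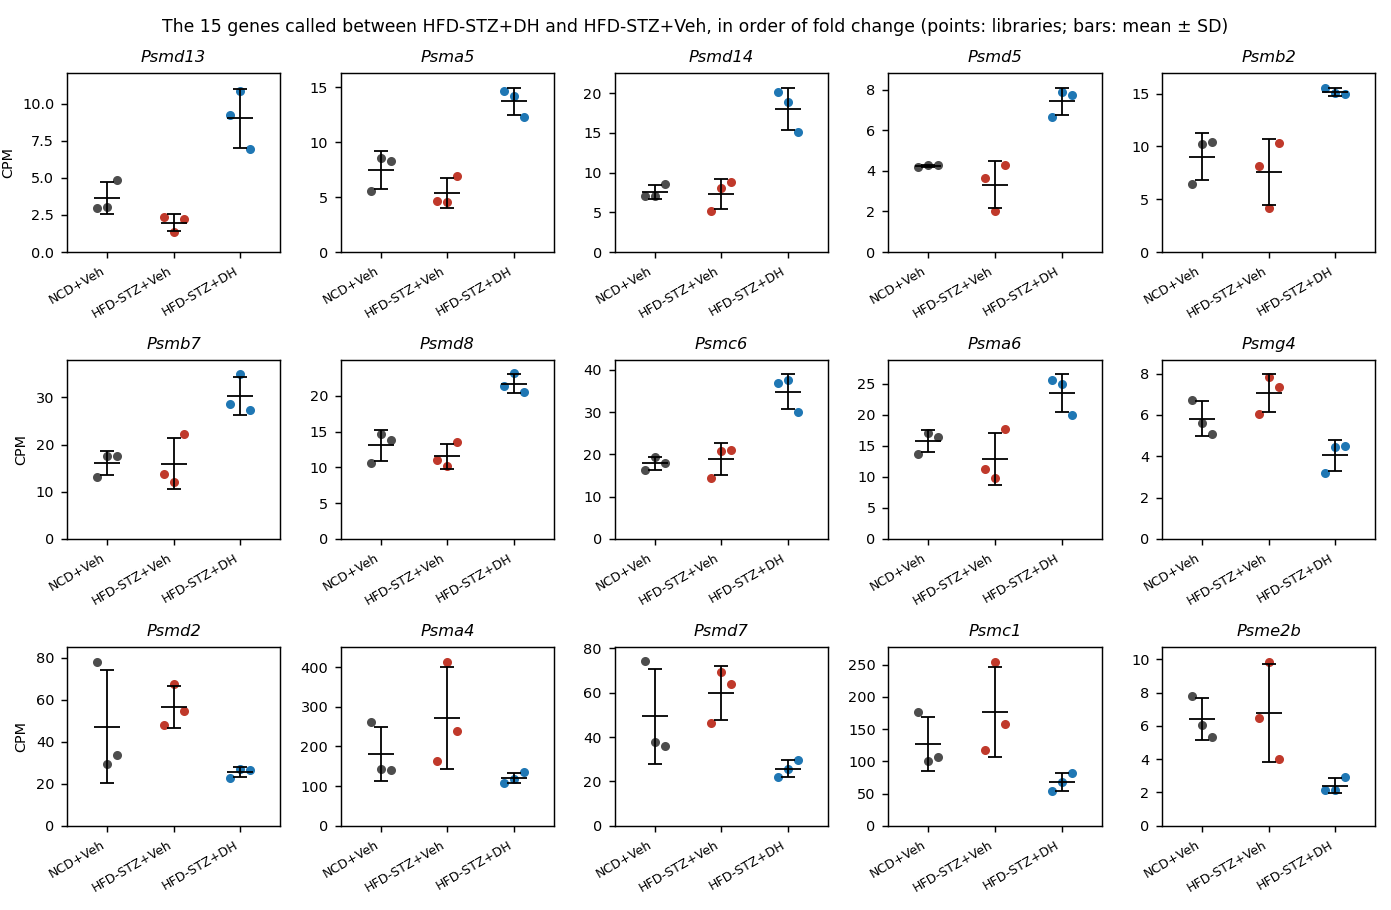
CPM of the 15 genes called between HFD-STZ+DH and HFD-STZ+Veh, with 1 panel a gene in order of fold change, points for libraries and bars for mean ± SD. In the 9 genes that rose, the treated libraries lie above all model libraries. In the 6 that fell, the treated libraries lie below all others. The other groups spread widely in some of these genes, with HFD-STZ+Veh replicate 2 at 414 CPM in Psma4, and little in Psmg4.

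Among the assembly chaperones, Psmd5, which holds the ATPases Psmc1 and Psmc2 before they join the cap, had 4.17, 4.28 and 4.27 CPM in NCD+Veh. It had 3.63, 2.02 and 4.29 CPM in HFD-STZ+Veh and 6.67, 7.88 and 7.73 CPM in HFD-STZ+DH. The control libraries were nearly equal and the treated ones all above them. The rise over HFD-STZ+Veh was 2.17-fold (log2 1.12 ± 0.26, adjusted p = 0.0121). The other cap chaperones, Psmd9 (-0.02 ± 0.24) and Psmd10 (0.62 ± 0.30), were not called. Psmg4, a chaperone of the alpha ring, had 6.74, 5.61 and 5.09 CPM in NCD+Veh, 6.02, 7.82 and 7.34 CPM in HFD-STZ+Veh and 3.17, 4.44 and 4.51 CPM in HFD-STZ+DH. The treated libraries were the lowest, and the fall was 1.74-fold (log2 -0.80 ± 0.23, adjusted p = 0.0291). Psmg1, Psmg2 and Psmg3 were not called, with log2 fold changes from -0.56 to -0.03.

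The alternative caps open the gate of the core without ubiquitin or ATP. Psme1 and Psme2 form the activator that interferon-gamma raises. Psme1 had 39.1, 29.6 and 32.7 CPM in NCD+Veh, 45.6, 43.4 and 41.0 CPM in HFD-STZ+Veh and 35.4, 35.2 and 38.3 CPM in HFD-STZ+DH. The treated libraries were all below the model ones, by -0.26 ± 0.19 on the log2 scale, and the gene was not called (adjusted p = 0.348). Psme2 had 14.3, 17.9 and 15.7 CPM in NCD+Veh, 16.6, 14.03 and 15.2 CPM in HFD-STZ+Veh and 14.8, 18.5 and 17.9 CPM in HFD-STZ+DH, with overlap (0.16 ± 0.19, adjusted p = 0.565).

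Psme3, the nuclear activator, had 8.77, 10.2 and 9.76 CPM in NCD+Veh, 9.32, 10.1 and 14.4 CPM in HFD-STZ+Veh and 13.6, 14.3 and 13.5 CPM in HFD-STZ+DH. The treated libraries lay within the range of the model ones (0.28 ± 0.20, adjusted p = 0.338). Psme4, a large single-chain cap, had 32.2, 23.4 and 25.0 CPM in NCD+Veh, 30.4, 38.8 and 31.5 CPM in HFD-STZ+Veh and 31.4, 33.6 and 35.2 CPM in HFD-STZ+DH, with a log2 fold change of -0.01 ± 0.20 (adjusted p = 0.988). Psme2b had 7.81, 6.07 and 5.34 CPM in NCD+Veh, 6.45, 9.85 and 4.01 CPM in HFD-STZ+Veh and 2.18, 2.17 and 2.91 CPM in HFD-STZ+DH. It fell 2.73-fold with no overlap (log2 -1.45 ± 0.32, adjusted p = 0.0102). Psme2b is a near copy of Psme2, with 99.37% identity over 794 bases of mRNA, so how the reads were divided between the pair is uncertain. Its exons also overlap those of 9930111J21Rik1 on the same strand, where strand does not separate the reads.

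The immunoproteasome subunits were all low and none was called in any comparison. Psmb9, which takes the place of Psmb6, had 2.25, 1.99 and 3.04 CPM in NCD+Veh, 2.76, 2.43 and 1.85 CPM in HFD-STZ+Veh and 2.18, 2.64 and 2.79 CPM in HFD-STZ+DH. Its 3 groups covered the same range, and the log2 fold change of HFD-STZ+DH against HFD-STZ+Veh was 0.12 ± 0.29 (adjusted p = 0.789). Psmb10, the partner of Psmb7, had 1.98, 2.58 and 3.19 CPM in NCD+Veh, 2.44, 0.674 and 3.05 CPM in HFD-STZ+Veh and 2.29, 2.75 and 3.55 CPM in HFD-STZ+DH. Its only low value was in HFD-STZ+Veh replicate 2, and the log2 fold change was 0.39 ± 0.40 (adjusted p = 0.510). Psmb8, the partner of Psmb5, had 3.10, 3.82 and 3.78 CPM in NCD+Veh, 4.77, 3.24 and 3.17 CPM in HFD-STZ+Veh and 4.79, 4.32 and 6.19 CPM in HFD-STZ+DH. The treated libraries were above the control ones but overlapped the model ones (0.44 ± 0.26, adjusted p = 0.228).

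Set against its constitutive partner per base of mRNA, Psmb9 stood at 3.99% ± 1.07 of Psmb6 in NCD+Veh, 4.37% ± 1.99 in HFD-STZ+Veh and 4.18% ± 0.53 in HFD-STZ+DH. Psmb8 stood at 15.1% ± 2.33, 14.9% ± 7.19 and 17.4% ± 5.46 of Psmb5 in the same order. For these 2 pairs the spread within a group exceeded the difference between groups. Psmb10 stood at 14.1% ± 1.72, 10.9% ± 5.46 and 8.51% ± 2.58 of Psmb7. Psmb7 rose in the group with the lowest ratio, and the ratio itself was not tested. Psmb5 itself had 11.0, 12.5 and 9.99 CPM in NCD+Veh, 10.5, 9.31 and 20.8 CPM in HFD-STZ+Veh and 10.1, 17.5 and 15.6 CPM in HFD-STZ+DH. Psmb6 had 39.4, 34.9 and 34.3 CPM in NCD+Veh, 25.8, 32.4 and 46.2 CPM in HFD-STZ+Veh and 33.2, 40.1 and 34.3 CPM in HFD-STZ+DH. Both overlapped between all groups.

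**Figure D4:**
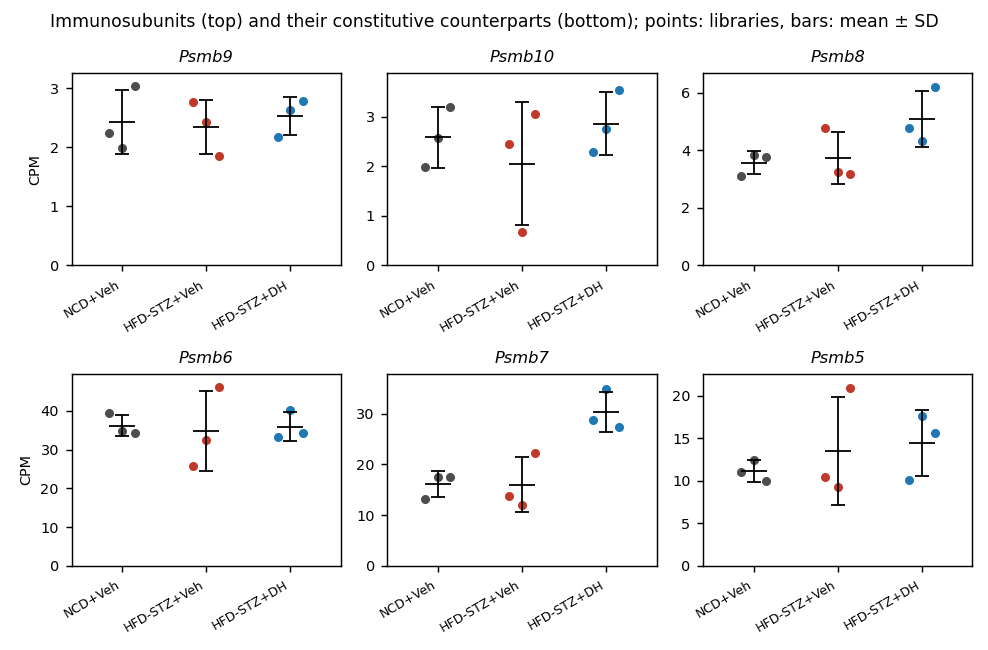
CPM of the 3 immunoproteasome subunits (top row) and of the constitutive subunits they replace (bottom row), with points for libraries and bars for mean ± SD in each group. Psmb7 is the only one of the 6 whose treated libraries, at 27.3 to 34.9 CPM, lie clear of both other groups.

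The promoters of the proteasome genes were searched for TGACNNNGC on both strands, the core of the antioxidant response element, to which Nfe2l1 and Nfe2l2 bind with small Maf proteins. Promoters were RefSeq windows of 250 bases before to 50 bases after the gene's start, in GRCm38.p6, an older build than the one the reads were aligned to. At least 1 window was found for 41 of the genes. The motif was in a window of 6 of these genes (14.6%), Psmb5, Psmb6, Psmc6, Psmd9, Psmd12 and Psme4, against 13.99% of all 27025 genes with an entry. It was in a window of 1 of the 7 genes with an entry that rose, of 0 of the 5 that fell and of 5 of the 28 tested genes that were not called. A match describes the letters only. The windows of 3 genes are shown as examples only, and no link between motif and direction was tested. Psmc6 rose and has the motif (GCTAAGTCA, in capitals, a match on the reverse strand whose first base is at position -227 from the start). Among the genes that rose its share, 14.3%, is near that of all genes. Psmd13 rose most and has none, and Psmc1, an ATPase of the same ring as Psmc6, fell and has none. The 3 windows lie at chr14:45329574-45329873, chr7:140882144-140882443 and chr12:100109952-100110251, all on the + strand.
Psmc6: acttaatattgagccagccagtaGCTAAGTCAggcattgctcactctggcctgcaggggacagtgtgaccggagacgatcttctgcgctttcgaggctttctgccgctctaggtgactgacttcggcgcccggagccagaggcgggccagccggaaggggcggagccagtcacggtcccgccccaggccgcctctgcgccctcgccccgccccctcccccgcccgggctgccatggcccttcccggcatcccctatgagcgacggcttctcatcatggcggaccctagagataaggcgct
Psmd13: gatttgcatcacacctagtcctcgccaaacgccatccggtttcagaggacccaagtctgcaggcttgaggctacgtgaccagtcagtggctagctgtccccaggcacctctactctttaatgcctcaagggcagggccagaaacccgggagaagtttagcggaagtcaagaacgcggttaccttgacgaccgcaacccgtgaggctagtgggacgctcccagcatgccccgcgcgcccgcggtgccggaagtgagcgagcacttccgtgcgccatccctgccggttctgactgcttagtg
Psmc1: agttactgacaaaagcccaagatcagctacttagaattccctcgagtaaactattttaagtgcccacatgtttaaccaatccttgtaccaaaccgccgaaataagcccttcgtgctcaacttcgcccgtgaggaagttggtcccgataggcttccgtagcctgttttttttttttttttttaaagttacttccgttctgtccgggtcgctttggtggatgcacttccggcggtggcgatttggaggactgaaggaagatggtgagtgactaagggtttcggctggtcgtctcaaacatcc

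The third comparison set HFD-STZ+DH against NCD+Veh, to ask how far the treated kidneys stood from the controls. It shares the HFD-STZ+DH libraries with the second comparison and the NCD+Veh libraries with the first, so its values are no separate evidence. In it 7 of the 47 genes rose (background 6.31% of all genes) and 1 fell (background 7.38%), which is 17.0% against 13.7% in either direction. Psmd13 rose by 1.30 ± 0.28 on the log2 scale (adjusted p = 0.0165), Psmd14 by 1.25 ± 0.23 (adjusted p = 0.0105) and Psmc6 by 0.96 ± 0.21 (adjusted p = 0.0174). Psmb7 (0.91), Psma5 (0.88), Psmd5 (0.81) and Psmd8 (0.73) also rose, with adjusted p from 0.0315 to 0.0489. The gene that fell was Psme2b (-1.40 ± 0.31, adjusted p = 0.0182). None of these 8 genes was called in HFD-STZ+Veh against NCD+Veh.

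The genes that fell against HFD-STZ+Veh differed less from the controls. Psmd7 stood at 25.8 ± 3.69 CPM in HFD-STZ+DH and 49.3 ± 21.6 CPM in NCD+Veh (adjusted p = 0.0532). Psmc1 stood at 67.3 ± 13.96 and 128 ± 41.9 CPM (adjusted p = 0.0787), Psmd2 at 25.4 ± 2.35 and 47.1 ± 27.0 CPM (adjusted p = 0.0878) and Psma4 at 120 ± 13.6 and 181 ± 68.7 CPM (adjusted p = 0.278). In these 4 genes all treated libraries were below all controls, and NCD+Veh replicate 1 was the highest control. In the classes without a call, the lowest p belonged to Psmd4 among the base non-ATPases (-0.79 ± 0.27, adjusted p = 0.0713), to Psmg2 among the core chaperones (-0.60 ± 0.26, adjusted p = 0.137) and to Psmb8 among the immunoproteasome subunits (0.51 ± 0.25, adjusted p = 0.181). Libraries did not overlap for 27 of the 47 genes, 20 higher and 7 lower, against a background of 22.4% higher and 21.7% lower, 44.1% in all.

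The genes called against HFD-STZ+Veh also differed between the libraries of the control group. All 6 genes that fell under treatment were higher in NCD+Veh replicate 1 than in replicates 2 and 3, by a median ratio of 1.77 to the mean of those libraries (range 1.26 to 2.47). Of the 9 genes that rose, 8 were lower in NCD+Veh replicate 1 than in both others, with a median ratio of 0.759. Among the 32 genes not called, 13 were above and 13 below. These counts are a description of 1 library, which is also the only control library with Y-linked transcripts (62.1 CPM of total counts, against 0.117 and 0.209 in the others) and the control with the highest mitochondrial share. The part of either in these differences was not tested, and the same counts were not made over all called genes. Psma4, Psmc1, Psmd2 and Psmd7, picked after their values were seen, made up 43.1%, 28.3% and 29.8% of all proteasome CPM in NCD+Veh. Their share was 35.1%, 51.1% and 34.8% in HFD-STZ+Veh and 19.8%, 20.1% and 23.7% in HFD-STZ+DH. The sum of all proteasome genes was 1175 ± 167 CPM in NCD+Veh, 1375 ± 270 CPM in HFD-STZ+Veh and 1125 ± 73.8 CPM in HFD-STZ+DH, differences within the spread of the groups.

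NCD+Veh replicate 1 and HFD-STZ+Veh replicates 2 and 3, the libraries with the highest levels of Psma4, also had the highest mitochondrial shares, at 51.5%, 60.4% and 52.4%. They are also the only libraries of these groups with Y-linked transcripts, so the mitochondrial share and sex cannot be told apart among the control and model libraries. With a term for Y-linked transcripts in the fit, all 15 genes were called against HFD-STZ+Veh in the same directions. The share called over all genes was 21.3%. Psma4 then had a log2 fold change of -0.86 and Psmc1 of -1.14. Against NCD+Veh that term gave 12 called genes, 8 higher and 4 lower, where 21.1% of all genes were called. A term for the mitochondrial share was added to the fit after the data were seen. With it, 6 of the 15 genes were called against HFD-STZ+Veh: Psmd13, Psmd14, Psma5, Psmc6, Psmd5 and Psme2b. Calls over all genes went from 22.1% to 10.8%. Of the genes that fell, Psma4 (-0.47), Psmc1 (-0.82), Psmd2 (-0.68), Psmd7 (-0.77) and Psmg4 (-0.61) were then not called, with their log2 fold changes under the term in parentheses. Of those that rose, Psmb7 (0.71), Psmb2 (0.61), Psmd8 (0.74) and Psma6 (0.72) were not called. Against NCD+Veh the same term gave 15 called genes, 9 higher and 6 lower, where 22.1% of all genes were called.

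**Figure D5:**
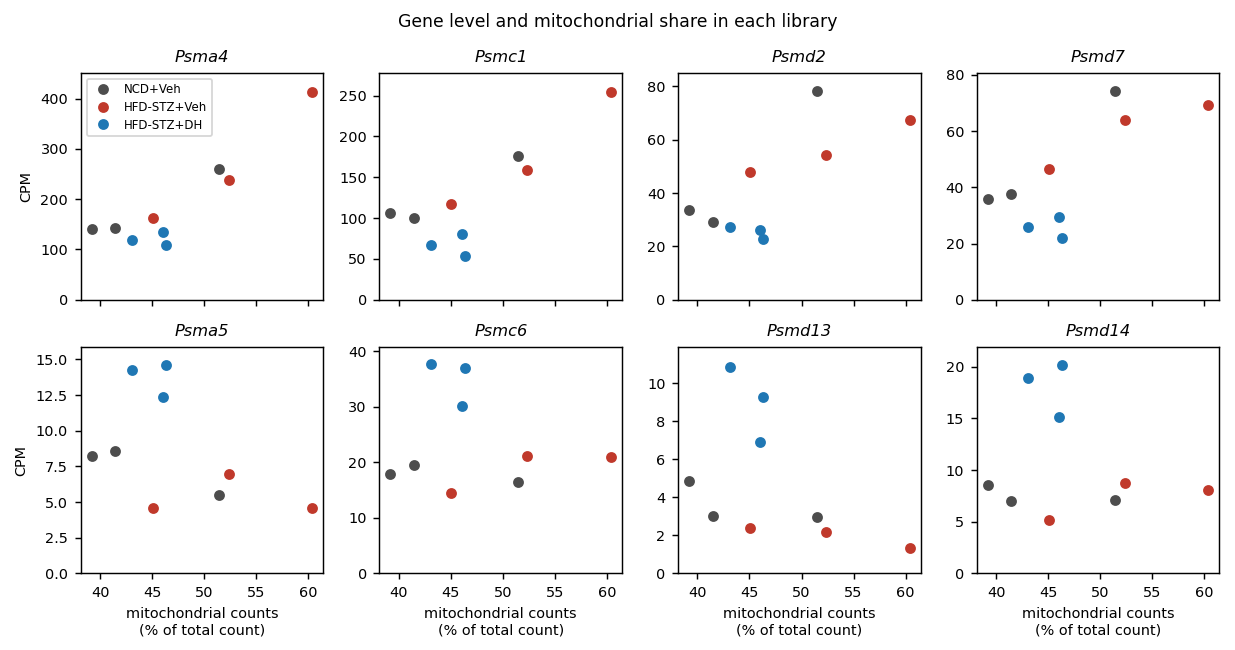
CPM of 4 genes that fell (top row) and 4 that rose (bottom row) under treatment, against the share of mitochondrial counts in percent, with each point a library coloured by group. In the top row the libraries above 50% stand highest, and in the bottom row the HFD-STZ+DH libraries lie above others with a like mitochondrial share.

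The calls depended on single libraries and on scaling. Against HFD-STZ+Veh, Psmd13, Psmd14 and Psma5 were called without any 1 of the 9 libraries. Without HFD-STZ+DH replicate 2 these were the only 3 calls (7.41% of all genes), and without HFD-STZ+DH replicate 1 there were 5 (6.55% of all genes). Without HFD-STZ+Veh replicate 2, the library that stood apart, there were 10, 6 higher and 4 lower (19.4% of all genes). Among these 10 was Psmd11, which was not called in the main fit. With library totals alone in place of TMM, 4 genes were called (5.17% of all genes), all higher, so 100% of calls were higher where the main scaling gave 60.0%. They were Psmd13, Psmd14, Psma5 and Psmc6. That scaling moved the median of all genes from 0.04 to 0.81. Against NCD+Veh, 0 genes were called without NCD+Veh replicate 1, without HFD-STZ+DH replicate 1 or without HFD-STZ+DH replicate 2. The share called over all genes was then 1.45%, 0.639% and 1.39%, so 0 of the proteasome genes is near the background.

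Several of the genes have close copies or lie over other genes, and how the authors' counting divided such reads is unknown here. Psma3 has a processed pseudogene, Gm13835, that matches it at 100% over 685 bases, and Psma4 has Gm6542 at 96.8% over 783 bases, with 1.21 to 20.4 CPM of its own. Psmb5 has Gm3375 at 98.9%, with 1.41 to 10.1 CPM. Adding the counts of the copies to each gene left the counts of calls at 0, 15 and 8 in the 3 comparisons. Psmd13 shares exon sequence with Sirt3, a mitochondrial deacetylase gene on the opposite strand. Sirt3 stood at 47.8, 35.1 and 27.0 CPM in NCD+Veh, at 40.1, 30.3 and 45.2 CPM in HFD-STZ+Veh and at 18.1, 18.7 and 18.8 CPM in HFD-STZ+DH. It fell by 1.06 on the log2 scale (adjusted p = 0.0119) where Psmd13 rose, and if strand was not used in counting, reads in the shared part cannot be told apart. Psmb7 likewise shares exon sequence with Nek6 on the opposite strand, at 100% over 255 bases. The immunosubunit gene Psmb9 shares exon sequence with Tap1 on the opposite strand, at 100% over 212 bases. The levels of Psmb7 and Psmb9 and their ratios carry the same doubt.

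Other genes of the pathway were read from fixed lists. For these lists the background over all genes was 10.0% higher and 12.0% lower against HFD-STZ+Veh. Against NCD+Veh it was 6.31% higher and 7.38% lower. Of 11 tested subunits and helpers with other names, 1 rose and 2 fell against HFD-STZ+Veh. Txnl1, a thioredoxin-like protein that binds the cap, rose by 0.77 ± 0.23 (adjusted p = 0.0318). Ecpas, a clamp between core and cap, fell by 1.03 on the log2 scale (adjusted p = 0.0263), from 76.2, 164 and 81.3 CPM to 51.4, 51.8 and 53.8 CPM. Adrm1, a ubiquitin receptor of the cap, fell by 0.79 with libraries that overlapped (adjusted p = 0.04998, just under the threshold). The median of the list was 0.15.

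Of the 7 genes that control proteasome genes, 2 rose and 0 fell. Nfe2l2, the antioxidant transcription factor, had 17.9, 14.8 and 18.8 CPM in NCD+Veh, 15.6, 21.7 and 16.1 CPM in HFD-STZ+Veh and 40.3, 39.2 and 28.1 CPM in HFD-STZ+DH. It rose by 1.02 ± 0.22 over HFD-STZ+Veh (adjusted p = 0.0104) and by 1.07 ± 0.22 over NCD+Veh (adjusted p = 0.0146). Ngly1, the enzyme that removes sugars from Nfe2l1, rose by 1.12 ± 0.22 (adjusted p = 0.00737) and by 0.88 ± 0.22 (adjusted p = 0.0240). Nfe2l1 itself, named here after its values were seen, was not called, with -0.57 ± 0.25 against HFD-STZ+Veh (adjusted p = 0.121). Nfe2l1 had 91.5, 76.7 and 75.3 CPM in NCD+Veh, 101, 67.8 and 79.0 CPM in HFD-STZ+Veh and 50.6, 72.9 and 43.1 CPM in HFD-STZ+DH. Its treated libraries were all below the control ones, but it was not called against NCD+Veh either.

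Of 13 ubiquitin genes and shuttle factors, 3 rose and 1 fell against HFD-STZ+Veh, with a median of 0.37. The shuttle factors Ubqln1 (1.49 ± 0.30, adjusted p = 0.00751) and Ubqln2 (1.58 ± 0.48, adjusted p = 0.0362) and the polyubiquitin gene Ubb (1.16 ± 0.37, adjusted p = 0.0427) rose, and the ligase Ube3a fell by 0.67 (adjusted p = 0.0446). Against NCD+Veh, 1 gene of each of the lists of helpers (Txnl1) and ubiquitin genes (Ubqln1) rose and 0 fell. In the model comparison 0 genes of these lists were called, where 0.0524% of all genes were called.

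The genes around the immunoproteasome were read in the same way, beside the same background shares. Of 10 genes of class I antigen presentation, 1 rose against HFD-STZ+Veh, the peptide trimmer Erap1 (0.65 ± 0.19, adjusted p = 0.0288), and it was also the only call against NCD+Veh. Of 15 tested genes of the interferon-gamma response, 5 rose and 0 fell (background 10.0% higher and 12.0% lower), with a median of 0.36. Among them were the receptor chain Ifngr1 (1.15 ± 0.24, adjusted p = 0.00821), the GTPase Gbp2 (2.19 ± 0.46, adjusted p = 0.00870) and the kinase Jak2 (1.22 ± 0.27, adjusted p = 0.0102). Against NCD+Veh 6 rose and 0 fell (background 6.31% higher and 7.38% lower). Irf1, a transcription factor of the immunosubunit genes that is named here after its values were seen, was not called (0.39 ± 0.26, adjusted p = 0.295).

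Immune cells carry much of the immunoproteasome of a tissue, so their markers are given beside these values. The background shares over all genes are those given for the pathway lists. The summed level of 4 leucocyte markers was 9.89 to 11.0 CPM in NCD+Veh, 6.61 to 14.3 CPM in HFD-STZ+Veh and 15.1 to 28.5 CPM in HFD-STZ+DH, and 1 of the 4, Ptprc, rose. Of 6 macrophage markers 3 rose (C1qa, C1qb and C1qc) and 1 fell (Csf1r) against HFD-STZ+Veh, and their sum was 32.0 to 46.8, 17.9 to 42.0 and 25.3 to 30.4 CPM in the 3 groups. The sum of 6 T cell markers was 2.86 to 3.49 CPM in NCD+Veh, 1.81 to 3.85 CPM in HFD-STZ+Veh and 4.12 to 6.14 CPM in HFD-STZ+DH, so every treated library lay above the 6 others. The sum of 4 B cell markers was 0.722 to 1.28 CPM over the 9 libraries, and 0 genes were called in either list. Of the kidney lists, 1 of 5 proximal tubule markers (Slc5a2) rose against HFD-STZ+Veh, with a list median of -0.03. The sum of the 5 spread widely within groups. It was 3634 to 7074 CPM in NCD+Veh, 1192 to 10403 CPM in HFD-STZ+Veh and 1028 to 4482 CPM in HFD-STZ+DH. In each group the libraries with Y-linked transcripts had the highest sums. Sex and the amount of proximal tubule therefore cannot be told apart in this sum. Of the 3 podocyte markers listed, only Podxl is reported here, so it does not stand for the list. Podxl stood at 18.2, 26.8 and 27.6 CPM in NCD+Veh, at 15.3, 6.34 and 12.5 CPM in HFD-STZ+Veh and at 36.8, 37.3 and 28.6 CPM in HFD-STZ+DH. It rose by 1.57 ± 0.30 over HFD-STZ+Veh (adjusted p = 0.00658), and its groups did not overlap. None of the 2 thick ascending limb, 2 distal convoluted tubule, 3 collecting duct or 4 endothelial markers was called against HFD-STZ+Veh, though the summed collecting duct markers were lower in every treated library (48.4 to 64.4 CPM against 79.8 to 111 CPM). Against NCD+Veh 1 of the 2 distal convoluted tubule markers, Pvalb, rose (2.07 ± 0.39, adjusted p = 0.0115). The sum of the 2 overlapped between these groups. It was 439 to 545 CPM in NCD+Veh, 715 to 749 CPM in HFD-STZ+Veh and 329 to 691 CPM in HFD-STZ+DH. The part of cell makeup in the proteasome values was not tested.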

How the data were processed

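Per the file headers and labels, the deposited table gives whole-number raw counts for each gene and library, with 0 further columns of per-sample values. The submitters' processing notes name the tools FastQC, Trim Galore and STAR and the build GRCm39 (mm39). Not given in the sources used here are tool versions, the counting program, how it treated strand and multiply mapped reads, and the annotation used. Libraries were stranded and poly(A)-selected, per the labels' protocols. Groups come from the titles, because the treatment label is the same for all 9 libraries.

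Symbols were matched by Ensembl identifier for 94.1% of genes. Transcript lengths, overlaps and copies (at least 90% identity over 200 bases) come from an annotation of an older build, and the only coordinates given are those of 3 promoters, in that build. In R 4.3.3, edgeR 4.0.16 kept genes by filterByExpr, scaled libraries by TMM and fitted all 9 libraries in 1 robust quasi-likelihood model with group as its only term (6 residual degrees of freedom, common dispersion 0.0893). F-tests were two-sided, adjusted by Benjamini-Hochberg, and called at an adjusted p below 0.05. The F statistic gave the standard errors. The steps were tested on simulated data with 200 changed genes. A count of 0 allows 3 counts, for counting error only.

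The proteasome genes, classes and lists were chosen with earlier results of these data known. Values by library are given for the cutting subunits, the immunosubunits, the activators and up to 3 called genes of each class and direction, or its gene of lowest p, and up to 3 called genes of each pathway list are named. Alternatives were other scalings, filters and tests (DESeq2 1.42.0, and voom in limma 3.58.1), only the groups compared, a replicate block, a term for Y-linked transcripts and leaving out each library. After the data were seen, the addition of pseudogene copies and a term for the mitochondrial share were added. Some single-gene results of the marker and pathway lists are not reported here.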

Additional observations from a re-analysis of the deposited data

How the results depend on the processing

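Under 18 planned and 2 added alternatives, 0 proteasome genes were called for HFD-STZ+Veh against NCD+Veh, with 0 to 9 at an unadjusted p below 0.05. Over all genes 0.0112% to 1.33% were called under these settings. The median log2 fold change of that comparison was -0.78 with library totals alone (all genes -0.74) and ran from -0.15 to 0.14 without single libraries. For HFD-STZ+DH against HFD-STZ+Veh the 15 calls (22.1% of all genes called) became 4 with library totals alone (5.17%). They became 6 with the term for the mitochondrial share (10.8%) and 3 to 15 without single libraries (6.55% to 22.9%). Under the others they lay between 10 and 16 (12.6% to 27.4%). The median was 0.89 with library totals alone (all genes 0.81) and 0.10 to 0.34 without single libraries. Psmg4, which fell, was at 0.046 on the log2 scale with library totals alone. For HFD-STZ+DH against NCD+Veh the 8 calls (13.7% of all genes called) became 0 with library totals alone (0.210%) and 13 by DESeq2 (20.5%). They became 17 with only these groups in the fit (23.6%) and 15 with the term for the mitochondrial share (22.1%). The term for Y-linked transcripts gave 12 (21.1%), and without single libraries there were 0 to 13 (0.639% to 20.6%). With 1 library left out, its group of 2 shares the spread estimated over all groups. Same-numbered libraries deviated together with correlations from -0.41 to 0.22, and differently numbered ones from -0.35 to 0.50. These values show no pairing of the samples by replicate number, but they cannot exclude one. With the replicate block the calls were 0, 10 (7 higher and 3 lower) and 4 in the 3 comparisons. The share called over all genes was then 0.0116%, 12.6% and 4.49%. The library size after scaling was lowest in HFD-STZ+Veh replicate 2 (7.41 M), where a count of 0 allows 0.405 CPM, close to the level of Psmb10 there.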
